A study of Bos taurus with 48 samples.

Results

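In the blood leukocytes of 6 calves that were housed with their dams, 74 genes were expressed at a higher level 7 days after housing than before it, in every calf. They are the members of a set that was defined on these same libraries: of 25669 genes in the table of read counts, 10262 had a mean of at least 5 CPM (the count of a gene relative to all counts of its library), 841 of these (8.2%) were higher on d 7 than on d 0 in all 6 control calves, and 74 of them had a mean change of at least 0.6 in log2(CPM + 1), after FOSB was left out. The study sequenced RNA of total leukocytes, left after lysis of the red cells, from 12 intact male Simmental beef calves (breed label Continental), of which 6 control calves were housed in pens together with their dam and 6 weaned calves were abruptly separated from the dam at housing and penned with other weaned calves. Blood was taken on d 0, before housing, and again on d 1, 2 and 7, which gave 8 groups of 6 libraries. All calves had grazed with their dams and had been vaccinated against respiratory viruses weeks before housing. The move indoors and the offer of silage and concentrate were common to both treatments. Separation from the dam and the pen companions differed, and the paper names dietary change and social reorganisation among the parts of weaning. A control calf on d 7 differs from its d 0 by housing, feed, handling and time together.

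Total leukocytes are a mixture of neutrophils, lymphocytes, monocytes and rarer cells. Neutrophils carry ready-made antimicrobial proteins in granules, lymphocytes recirculate between blood and lymph nodes, and stress hormones shift the proportions of these cells in blood within hours. A level in such a sample is a mean over all cells, so that fewer cells of a type and less RNA per cell cannot be told apart.

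The study's tables give a symbol for 643 genes of the count table and for 4 of the 74 genes. PGLYRP1 encodes a peptidoglycan recognition protein that is stored in neutrophil granules and kills bacteria. CDKN1C encodes the cyclin-dependent kinase inhibitor p57, which holds cells out of the division cycle. CLU encodes clusterin, a secreted chaperone of blood plasma that platelets also carry, and HBB encodes the beta chain of haemoglobin. The tables list genes that the study had called in comparisons of these libraries, so that having a symbol is not independent of the outcome. The other 70 genes are known here only by their Ensembl identifiers, and no position or sequence is given for any of the 74.

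Total counts per library lay between 1662995 and 4256011, and the floor of 3 counts used here stood for 0.705 to 1.80 CPM. This covers counting error only. Of 9 lists of blood cell markers, the one best covered had 38.5% of its symbols in the study's tables, so that the leukocyte label could not be checked by cell type here. The study's own counts of blood cells were not used here. The labels of the calves were checked with the 50 genes that differed most between calves on the other 3 days. By this measure 44 of 48 libraries resembled their own calf most (correlation with the calf's other days at least 0.703), among them all 12 control libraries of d 0 and d 7. The other 4 libraries did not, of which 3 were weaned. The library labelled calf 1758 on d 7 resembled calf 1770 (0.842, own calf 0.460), and the library labelled calf 1770 on d 7 resembled calf 1758 (0.599, own calf 0.255). The library labelled 1758 on d 0 (own calf 0.103) and the library labelled 1755 on d 2 (own calf -0.27) resembled no calf closely and correlated with each other at 0.58. An exchange of calves within weaned d 7 would leave every comparison of groups as it is and would alter the changes within those calves, so the group comparisons that hold these libraries are given with and without them.

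**Figure D1:**
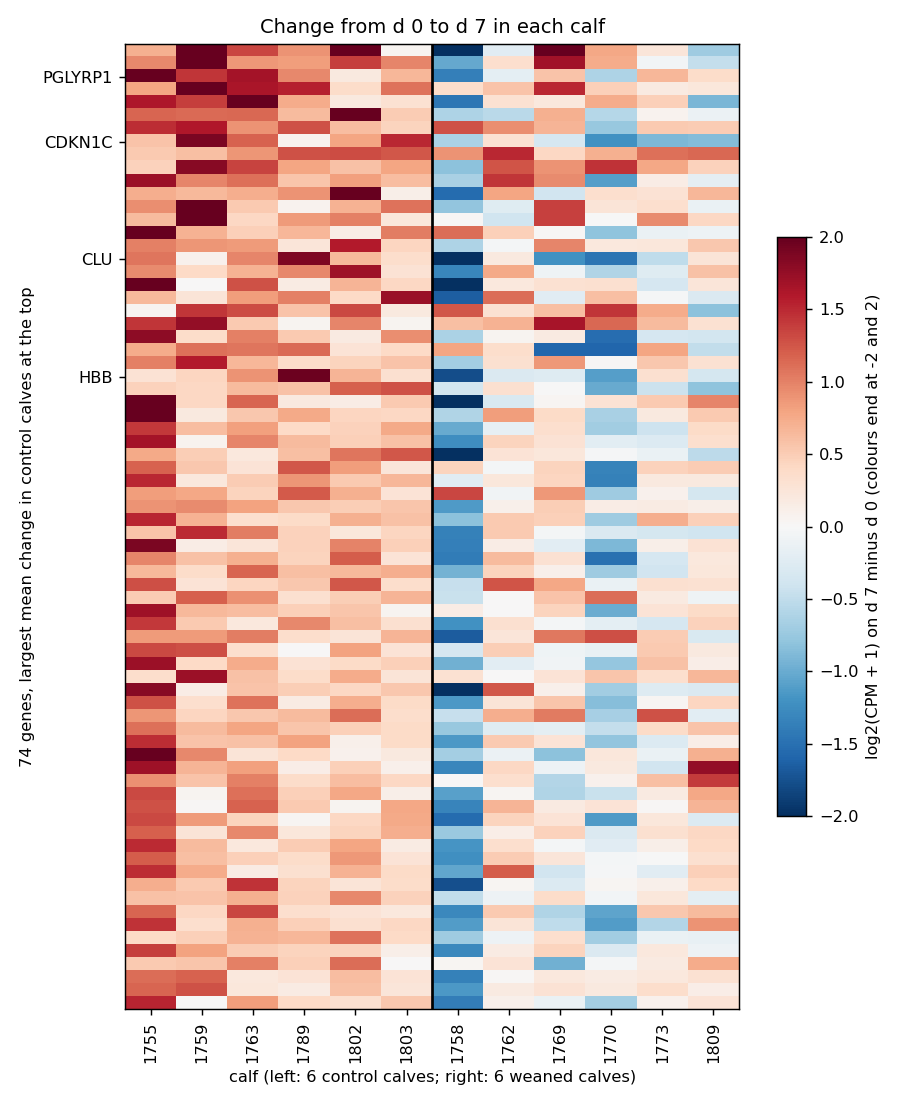
Change in log2(CPM + 1) from d 0 to d 7 for the 74 genes (rows, ordered by the mean change in control calves) in each calf (columns; 6 control calves left of the line, 6 weaned calves right of it). Red is higher and blue is lower on d 7; the control columns are red throughout because the genes were chosen so, and among the weaned calves the column of 1758 is mostly blue.

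Because the genes were chosen for their rise in control calves, the size of that rise is described here without a test. The mean change over the 6 control calves lay between 0.61 and 1.34 log2 units, with a median of 0.70. It was at least 1 for 8 genes and under 0.7 for 36 genes. The 3 genes nearest to the limit from above had mean changes of 0.61, 0.61 and 0.61, and the 3 nearest from below, which are not in the set, had 0.59, 0.60 and 0.60, so that the limit cuts through a continuous range. The smallest change in any calf was 0.004 for the gene with the least margin, and the median over the genes of the smallest change was 0.22. Of the 74 genes, 3 had all 6 d 7 libraries above all 6 d 0 libraries. Among all 10262 genes at this level 34 had (0.331%), and the choice of the set favours such a separation. For the other 71 genes of the set the days overlapped between calves and the rise was visible within calves.

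The members were genes of modest expression. Mean CPM over the 48 libraries ran from 5.56 to 259 with a median of 17.4, and it was under 10 for 23 genes and over 50 for 7 genes. Summed over the 74 genes, the control libraries of d 0 held 1274 to 1963 CPM with a median of 1564, and those of d 7 held 2225 to 3198 CPM with a median of 2687. The lowest d 7 library lay above the highest d 0 library, a separation that the choice of the genes favours. The weaned libraries held 1521 to 2385 CPM on d 0 (median 2164) and 1518 to 2746 CPM on d 7 (median 2022), and these ranges overlapped almost whole. The choice did not favour a change in the weaned calves, so the treatments are not compared by these sums. The weaned ranges include the libraries labelled 1758 on d 0 and d 7 and 1770 on d 7, which did not match their calf.

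Calves differed in how far the genes rose. The median change of the 74 genes from d 0 to d 7 was 1.17 in control calf 1755, 0.80 in 1763, 0.62 in both 1759 and 1802, 0.50 in 1789 and 0.41 in 1803. Of all 10262 genes at this level, between 35.9% and 56.5% were higher on d 7 in these calves. The libraries of d 0 and d 7 had been sequenced on the same flowcell in 2 control calves (1802 and 1803), where the median changes were 0.62 and 0.41, and on different flowcells in 4, where they were 0.50 to 1.17. The part of the flowcell in the choice of these genes was not tested.

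**Figure D2:**
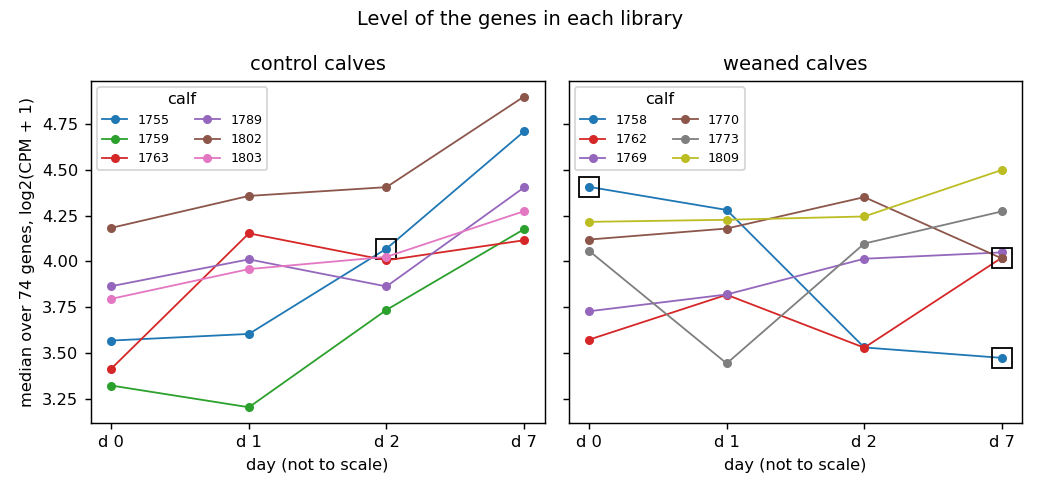
Median log2(CPM + 1) of the 74 genes in each library, by day, with a line for each calf; open squares mark the 4 libraries that did not match the calf of their label. Control calves lay between 3.32 and 4.18 on d 0 and between 4.12 and 4.90 on d 7, and weaned calves between 3.57 and 4.41 on d 0 and between 3.47 and 4.50 on d 7.

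On the days between, the mean of the control calves was above d 0 for 65 of 74 genes on d 1 and for 66 on d 2, with median changes of 0.19 and 0.31. For all 74 genes the mean of d 7 was the highest of the 4 days, and for 49 genes the means rose in the order d 0, d 1, d 2 and d 7. The genes were chosen low on d 0 and high on d 7 in these calves, so that the choice favours this order. These comparisons share those libraries, and they are not tested. The d 2 values include the library labelled 1755, which did not match its calf. By d 1, 9 of the 74 genes were higher in all 6 control calves, and by d 2, 8 genes, where 1.65% and 1.93% of all genes at this level were, and 0 were lower in all 6 on either day (1.76% and 1.74% of all genes). Control calf 1763 had 73 of 74 genes above its own d 0 already on d 1, with a median change of 0.70, whereas the median changes of the other 5 control calves on d 1 were between -0.09 and 0.15. The library of calf 1763 on d 1 was run on another flowcell than its d 0, unlike those of the other 5, and the part of this was not tested.

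The change from d 1 to d 2 in control calves did not enter the rule, which used these libraries only for the mean level. Here 56 of the 74 genes had a fold change above 0 and 18 below, with a median of 0.10 log2 units, while 50.3% of all genes at this level were above 0. No gene of the set was called at an adjusted p under 0.05 with a 2-fold change (edgeR's quasi-likelihood test, 0% of 13880 genes tested were called), none reached an unadjusted p under 0.05 (0.303% of all genes were higher and 0.735% lower), and DESeq2 called 0 as well, with 1 gene higher at an unadjusted p under 0.05. With the calf as a block 1 gene was higher and 0 lower at this p (0.382% and 0.584% of all genes). Without the library labelled 1755 on d 2 the median was 0.11 with 55 genes above 0. With flowcell in the fit it was 0.01 with 39 genes above 0. Leaving out single calves moved it to 0.02 (42 genes above 0) without calf 1759, 0.17 without 1763 and 0.19 without 1789 (60 genes above 0 in each).

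In the 6 weaned calves together, the median of the 74 genes lay close to 0, and it was higher without calves 1758 and 1770. Between d 0 and d 7, their median log2 fold change was -0.03, with 34 genes above 0 and 40 below, beside a median of 0.04 over all 14026 genes tested. The genes called at an adjusted p under 0.05 and 2-fold were 0 of 74 by edgeR and by DESeq2, and 0% of all genes tested. At an unadjusted p under 0.05, edgeR found 3 of the 74 genes higher and 1 lower, where 1.72% of all genes were higher and 0.927% lower, and DESeq2 gave the same counts of 3 and 1. With the calf as a block the counts were 5 higher and 2 lower (1.55% and 1.18% of all genes). The procedure recovered 190 of 200 genes changed 4-fold in simulated data of this comparison, a size of change that no member reached in any comparison of groups.

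The weaned calves did not behave alike, and the calf that differed most was the one labelled 1758, whose d 0 and d 7 libraries did not match it. The median change of the 74 genes from d 0 to d 7 was 0.29 in calf 1762, 0.28 in 1769 and in 1809, 0.18 in 1773, -0.25 in 1770 and -0.98 in 1758. Thus 4 calves lay above 0 and 2 below. In calf 1758, 14 of 74 genes were higher and 60 lower, while 47.9% of all genes at this level were higher in it. In the 4 weaned calves whose libraries matched their labels, 49 to 58 of the 74 genes were higher on d 7, where 42.3% to 52.2% of all genes were.

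Leaving calves 1758 and 1770 out, which was decided after the match of libraries to calves had been seen, the median log2 fold change was 0.26 with 64 of 74 genes above 0, and 3 genes were higher and 0 lower at an unadjusted p under 0.05. With the calf as a block, these 4 calves had 21 of 74 genes higher and 0 lower at an unadjusted p under 0.05, where 3.32% and 4.28% of all 13478 genes were. No gene of the set was called in either fit. Leaving out the d 0 library labelled 1758 alone gave a median of 0.04 with 41 genes above 0. A difference between the treatments in the change to d 7 was not tested, because the control side of it chose the genes. In these data 73 of 74 genes had the larger mean change in control calves, a count that the choice favours.

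On d 7, 4 genes were higher than on d 0 in all 6 weaned calves too, where 0.965% of all genes at this level were, and 0 of 74 were lower in all 6, where 1.2% were. In the 4 weaned calves with matching libraries, 18 of 74 genes were higher on d 7 in every calf and 0 lower, where 7.36% and 10.1% of all genes at this level were. Of the 17 genes that met the limits of the rule in weaned calves, 2 were members, which is 11.8% of those genes and 2.70% of the 74. ENSBTAG00000010464 was at 1.36 to 6.89 CPM (median 3.13) on d 0 and at 3.34 to 12.1 CPM (median 8.0) on d 7 in control calves. In weaned calves it was at 2.20 to 5.47 CPM (median 3.14) on d 0 and at 4.25 to 13.4 CPM (median 7.47) on d 7. The ranges overlapped in both treatments, and the gene had the smallest unadjusted p of the set in weaned calves (log2 fold change 1.15 ± 0.34 SE, adjusted p = 0.920, edgeR). ENSBTAG00000004247 rose in control calves from 5.35 to 18.5 CPM (median 12.1) on d 0 to 7.66 to 43.0 CPM (median 19.9) on d 7. In weaned calves it ran from 0 to 8.86 CPM (median 3.91) on d 0 and from 0.555 to 17.6 CPM (median 10.0) on d 7, higher in 6 of 6 calves. In 2 of these calves it held 0 to 2 counts on both days, under the floor of 3 counts, so that a rise could be read in 4 calves. The levels of ENSBTAG00000004247 spread widely between calves. Its log2 fold change was 1.12 ± 0.81 (SE, unadjusted p = 0.186, adjusted p = 0.920, edgeR).

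The member with the highest level was also higher in all 6 weaned calves. This gene was at 147 to 252 CPM (median 222) on d 0, at 238 to 367 CPM (median 262) on d 2 and at 234 to 301 CPM (median 277) on d 7 in weaned calves, so that d 0 and d 7 overlapped in part. Its fold changes against d 0 were 0.39 ± 0.13 (SE) on d 2 and 0.34 ± 0.11 on d 7 on the log2 scale, with adjusted p-values of 0.944 and 0.920 (edgeR). In control calves its median was 189.8 CPM on d 0 and 308 CPM on d 7.

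**Figure D3:**
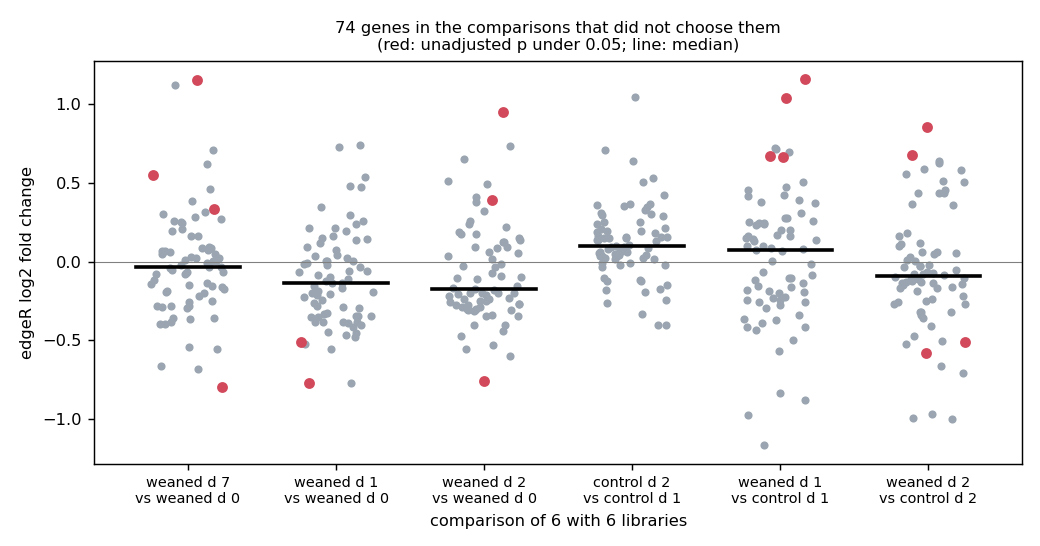
edgeR log2 fold changes of the 74 genes (points) in the 6 comparisons of 6 with 6 libraries whose changes did not enter the rule, with the median as a line; red points have an unadjusted p under 0.05. The medians lie between -0.18 and 0.10, and no comparison has more than 4 red points in 1 direction.

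On d 1 and d 2 after weaning the median of the set was below 0, and it was nearer to 0 without the d 0 library labelled 1758. On d 1 the median log2 fold change against d 0 was -0.14, with 25 genes above 0 and 49 below, and all 14038 genes tested had a median of 0.02. None of the 74 genes was called by edgeR or DESeq2, while 0 were higher and 2 lower at an unadjusted p under 0.05, where 6.07% and 4.3% of all genes were. With the calf as a block, 6 genes were higher and 15 lower (13.7% and 11.4% of all genes), and again 0 were called (0.0142% of all genes). Without the d 0 library labelled 1758, the median was -0.04 with 32 genes above 0, with 1 higher and 0 lower. In all 6 weaned calves, 3 of the 74 genes were higher and 5 lower on d 1 (4.38% and 3.37% of all genes at this level), and in the 5 calves without 1758, 3 were higher and 7 lower (4.68% and 4.19%). In calf 1773, 64 of 74 genes were lower on d 1 than on d 0, with a median change of -0.55, whereas 45.2% of all genes were higher.

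On d 2 the median log2 fold change in weaned calves was -0.18, with 26 genes above 0 and 48 below (0.03 over 13984 genes). At an unadjusted p under 0.05, 2 genes were higher and 1 lower, where 1.39% and 0.722% of all genes were, and no gene was called by edgeR or DESeq2. In all 6 calves, 2 of the 74 genes were higher and 2 lower (0.546% and 2.8% of all genes at this level), and in the 5 without 1758, 5 were higher and 2 lower (1.64% and 3.26%). Without the d 0 library labelled 1758 the median was -0.06 with 34 genes above 0, and without both libraries of that calf it was 0.03. The gene with the smallest p among those lower, ENSBTAG00000008336, was at 4.43 to 17.1 CPM (median 7.19) on d 0 and 3.45 to 6.94 CPM (median 5.10) on d 2, with overlapping ranges and a log2 fold change of -0.76 ± 0.33 (SE, adjusted p = 0.944, edgeR).

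Weaned and control calves were compared on d 1 and d 2, whose libraries the rule used only for the mean level. On d 1 the median log2 difference, weaned over control, was 0.08 with 40 genes above 0 and 34 below, and it turned to -0.07 without control calf 1759 and to -0.06 without weaned calf 1809. At an unadjusted p under 0.05, 4 of the 74 genes were higher in weaned calves and 0 lower, where 1.03% and 1.98% of all 14078 genes were. These 4 genes differed by 1.16, 1.04, 0.67 and 0.66 log2 units. Their means were also higher in the weaned calves on d 0, before weaning, at 19.2 against 10.6, 18.6 against 7.93, 64.4 against 47.2 and 10.7 against 5.99 CPM in the same order, which was not tested, since d 0 of the control calves chose the genes. On d 2 the median was -0.09 with 27 genes above 0 and 47 below, with 2 genes higher and 2 lower, where 2.47% and 0.903% of all 13949 genes were. Neither day had a gene of the set called, by edgeR or by DESeq2, and the smallest adjusted p in the set was 0.959 on d 1 and 0.950 on d 2. Without the library labelled 1755 on d 2, the median of d 2 was -0.08, with 2 genes higher and 4 lower.

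**Figure D4:**
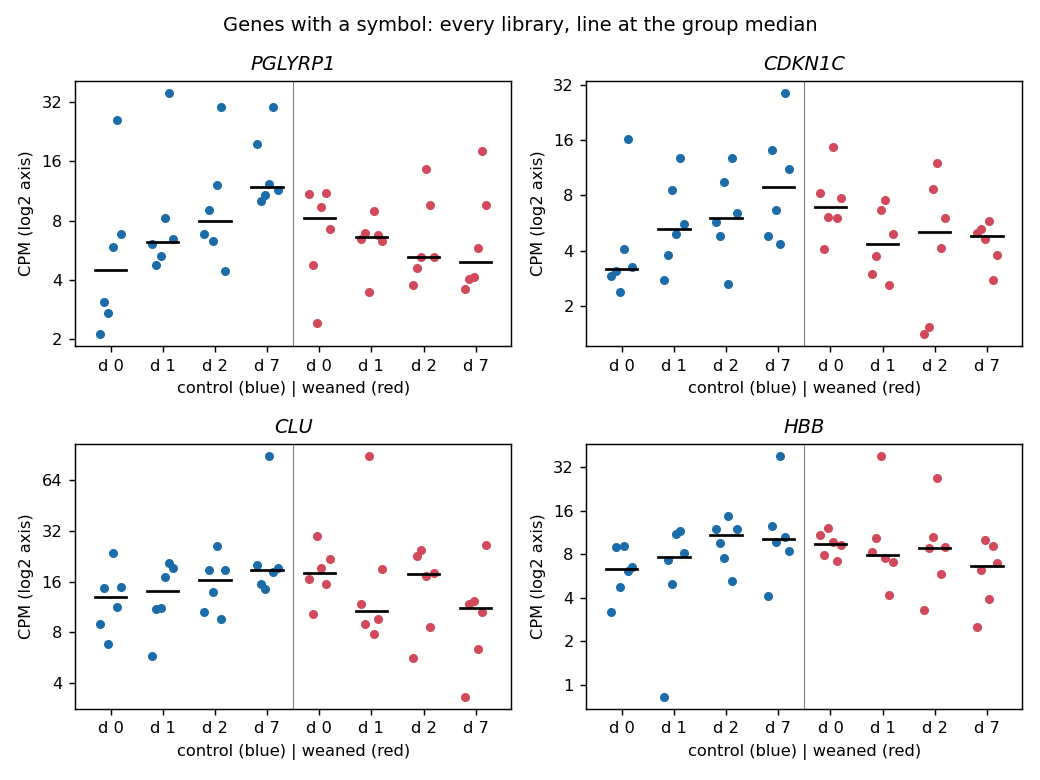
CPM (log2 axis) of PGLYRP1, CDKN1C, CLU and HBB in each library by group, 6 calves a group, with a line at the group median. The d 7 median of control calves is above their d 0 median in each panel, and CLU and HBB each have their 2 highest points in control d 7 and weaned d 1.

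PGLYRP1, the granule protein of neutrophils, had the largest change among the genes with a symbol, with a mean of 1.28 log2 units in control calves. In these calves it was at 2.12 to 26.1 CPM (median 4.47) on d 0, at 4.75 to 35.5 CPM (median 6.25) on d 1, at 4.45 to 30.2 CPM (median 7.91) on d 2 and at 10.0 to 30.1 CPM (median 11.9) on d 7. Control calf 1802 held the highest value on all 4 days, and its own change to d 7 was the smallest, at 0.20. In weaned calves the levels were 2.43 to 10.98 CPM (median 8.29) on d 0 and 3.60 to 18.05 CPM (median 4.94) on d 7. The gene was higher in 3 weaned calves and lower in 3, with a mean change of -0.09 ± 0.80 (SD, n = 6, exact two-sided permutation test p = 0.812, adjusted over 16 such tests 0.867). The fitted log2 fold change of -0.02 ± 0.45 (SE) turned to 0.51 when calves 1758 and 1770 were left out, with an adjusted p of 1.00 (edgeR), and 3 of the other 4 calves were higher.

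CDKN1C rose by a mean of 1.00 log2 units in control calves, from 2.38 to 16.3 CPM (median 3.18) on d 0 to 4.33 to 28.8 CPM (median 8.91) on d 7. In weaned calves it was lower than on d 0 in 5 of 6 calves on each of d 1, 2 and 7. These counts share the same d 0 libraries, so they are not independent. Without calf 1758, 4 of 5 calves were lower on d 1 and on d 2 (exact permutation p = 0.1875 and 0.25, smallest possible 0.0625). In the 6 weaned calves CDKN1C was at 4.09 to 14.6 CPM (median 6.92) on d 0, at 2.60 to 7.58 CPM (median 4.33) on d 1, at 1.41 to 12.1 CPM (median 5.07) on d 2 and at 2.78 to 5.77 CPM (median 4.81) on d 7. The days overlapped. On d 7 its log2 fold change was -0.80 ± 0.31 (SE, unadjusted p = 0.0212, adjusted p = 0.920, edgeR), and it was the gene of the set that was lower at an unadjusted p under 0.05. On d 1 the log2 fold change was -0.77 ± 0.34 (SE, adjusted p = 0.423, edgeR). Within calves the mean change to d 7 was -0.61 ± 0.53 (SD, n = 6), for which the exact permutation test gave p = 0.0625 (adjusted 0.4), where 6 calves cannot give less than 0.0312. Without calves 1758 and 1770, the log2 fold change on d 7 was -0.53 (unadjusted p = 0.133, edgeR) and 3 of 4 calves were lower, with a mean change of -0.45 ± 0.57 (SD, n = 4, exact permutation p = 0.25, where 4 calves cannot give less than 0.125). The unadjusted p was 0.0676 without calf 1770 alone and 0.106 with all 48 libraries in 1 fit. At these levels a library held few reads of this gene, 95 in all over the 6 weaned libraries of d 7.

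CLU rose by a mean of 0.83 log2 units in control calves and HBB by 0.77. In calf 1789, HBB changed by 1.97, and the mean of the other 5 calves was 0.53, under the limit of 0.6, so that HBB belongs to the set through this calf. For CLU the mean without calf 1789 was 0.63. CLU was at 6.79 to 23.7 CPM (median 13.0) on d 0 and at 14.4 to 88.9 CPM (median 18.8) on d 7 in control calves, and at 10.2 to 29.9 CPM (median 17.9) and 3.33 to 26.3 CPM (median 11.2) in weaned calves. HBB was at 3.18 to 9.05 CPM (median 6.33) on d 0 and at 4.13 to 38.3 CPM (median 10.1) on d 7 in control calves. In weaned calves HBB was at 7.14 to 12.1 CPM (median 9.43) on d 0 and at 2.50 to 10.0 CPM (median 6.61) on d 7. For both genes the days overlapped in each treatment.

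The weaned calves had log2 fold changes from d 0 to d 7 of -0.66 ± 0.40 (SE, adjusted p = 0.920, edgeR) for CLU and -0.55 ± 0.30 (SE, adjusted p = 0.920) for HBB. CLU was lower in 4 of 6 weaned calves and HBB in 5 of 6, each with an exact permutation p of 0.125 (adjusted 0.4). Without calves 1758 and 1770 the log2 fold changes were -0.31 for CLU and -0.15 for HBB, with adjusted p-values of 1.00 (edgeR), and 2 and 3 of 4 calves were lower, with exact permutation p-values of 0.5 for both. With flowcell as a block CLU was at -1.21 (adjusted p = 0.544, edgeR) and without calf 1809 at -1.06.

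Both genes had their highest values in the same 2 of 48 libraries. CLU was at 88.9 CPM in control calf 1789 on d 7 and at 88.6 CPM in weaned calf 1769 on d 1, against a median of 15.2 over all libraries. HBB was at 38.3 CPM in each of these libraries, against a median of 8.63. In calf 1769 on d 1, PPBP, a chemokine of platelet granules, was at 30.3 CPM (median of all libraries 1.88) and ALAS2, the enzyme that starts haem synthesis in red cell precursors, at 29.7 CPM (median 2.04), the highest values of both genes. In calf 1789 on d 7, PPBP was at 9.33 CPM, the next highest, and ALAS2 at 7.99 CPM. The next highest ALAS2 was in weaned calf 1770 on d 0, at 10.2 CPM, where HBB was at 9.64 CPM. SLC4A1, a membrane protein of red cells, had 0 counts in both of these libraries. Of the marker lists, 2 of 12 platelet genes and 3 of 13 red cell genes could be identified, and the third highest HBB value, 27.0 CPM in weaned calf 1770 on d 2, came with the highest SLC4A1, at 3.85 CPM, and an ALAS2 of 3.08 CPM. The part of platelet and red cell RNA in the levels of CLU and HBB was not tested. HBB was the member found in a fixed list, of 26 lists in all, and most symbols of the lists were not identified.

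How the genes moved within a calf was also described for changes that did not enter the rule. From the 36 libraries other than control d 0 and d 7, which the rule used only for the mean level, 18 steps between days could be formed that share no library, from d 0 to d 1 and from d 2 to d 7 in weaned calves and from d 1 to d 2 in control calves. In a step, 10 to 59 of the 74 genes were higher on the later day, while 40.3% to 65.6% of the 10262 genes at this level were. The share of the 74 genes that moved in the more common direction was 52.7% to 86.5% with a median of 64.2%, also in the 14 steps without a library that did not match its calf. Such a share lies above 50% by construction and more so for 74 genes than for 10262, and its value without any common movement was not computed. The direction differed between calves of a treatment: 59 of 74 genes were higher on d 2 than on d 1 in control calf 1759, while in control calf 1789 52 were lower. In weaned calf 1762, 52 of 74 genes were higher on d 1 than on d 0, while in calf 1773 64 were lower.

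**Figure D5:**
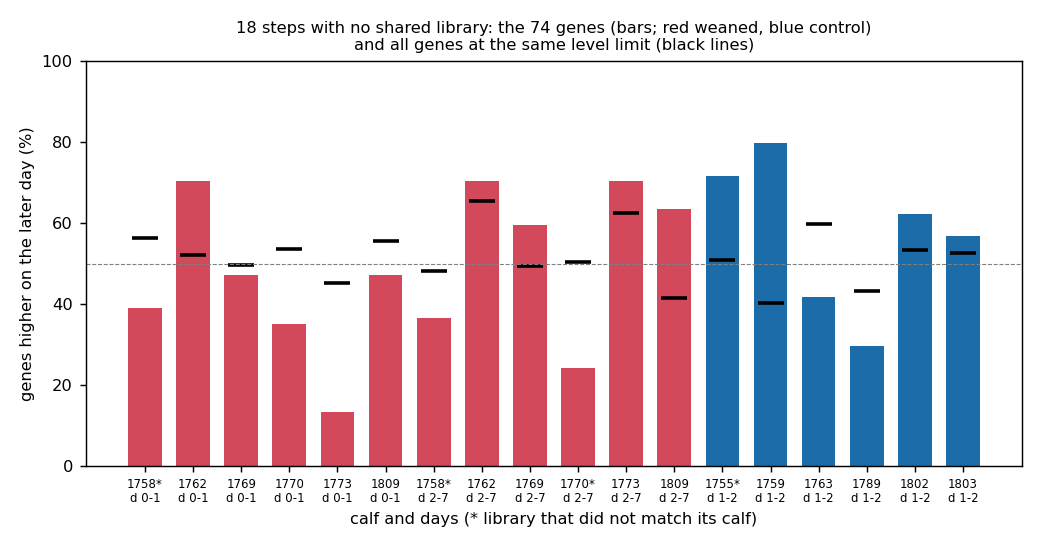
Share of the 74 genes that were higher on the later day in 18 steps between days (bars; red for weaned, blue for control calves), with the share among all genes of mean CPM at least 5 as black lines; a star marks a step with a library that did not match its calf. The bars range more widely around 50% than the black lines, and the lowest bar is calf 1773 from d 0 to d 1, where 10 of 74 genes were higher.

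Single genes followed the majority of the set to different degrees. A gene moved in the direction of most of the other 73 in 5 to 17 of the 18 steps, with a median of 12, and 41 genes did so in at least 12 steps, where the median of all genes at this level was 9. PGLYRP1 and HBB moved with the majority in 11 steps and CLU and CDKN1C in 10. In the 14 steps with matched libraries, the median of the set was 9, and a median of all genes is not given for these steps. There PGLYRP1, HBB and CDKN1C moved with the majority in 7 steps and CLU in 6. The member with the highest level, which was higher on d 2 and d 7 in every weaned calf, followed the majority in 5 steps, the fewest of all, and ENSBTAG00000004247 followed it in 7. ENSBTAG00000008336 followed it in 15. Steps of a calf share that calf, and members that share cells or reads are not independent, so these counts are a description.

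The number of different genes found in a library, at an equal depth of 1662995 counts, was set beside the level of the set. It was 12891 to 14018 over the 48 libraries. From d 0 to d 7 it fell by 486 genes in control calf 1759, the largest fall in control calves, and rose by 132 in calf 1803. It was highest in the library labelled 1758 on d 7, where 789 more genes than on d 0 went with the largest fall of the set. Neither of these libraries matched its calf, so that this difference may not be a change within a calf. In 12 of the 18 steps, and in 8 of the 14 with matched libraries, the number of genes moved opposite to the median of the 74 genes. The count to be met without any relation was not computed. The part of library complexity in the levels of the set was not tested.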

How the data were processed

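The files deposited by the authors hold raw read counts for each Ensembl gene. Per the study's methods, 36 bp single reads were aligned to Btau4.0 with Bowtie 0.12.7 without mismatches, reads with several alignments were suppressed, 1 read was kept at each genomic position, and reads were counted with HTSeq 0.4.6p2. Keeping 1 read at a position holds down strongly expressed genes. Whether strand was used is not given in the sources used here.

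From the counts, CPM was computed with column sums, and changes with a pseudocount of 1. Pairs of groups, 12 libraries each, were tested in edgeR 4.0.16 (R 4.3.3): TMM, genes with at least 10 counts in total, quasi-likelihood F-test, Benjamini-Hochberg adjustment over all genes tested, and calls at an adjusted p under 0.05 and 2-fold. Alternatives were RLE factors, DESeq2 1.42.0, other filters, all 48 libraries in 1 fit, flowcell or calf as a block, and leaving out calves. The same calf gave the libraries of each day, so that calf numbers pair them: deviations of a calf from its group means correlated by 0.48 on average between d 0 and d 1 in weaned calves, and by 0.24 between d 0 and d 7. The mean for d 7 includes calves 1758 (-0.47) and 1770 (0.19), whose d 7 libraries did not match. The other weaned calves lay between 0.25 and 0.74. Procedures were tested on simulated data. Libraries of a group differed by 2.79 to 57.9 times what counting alone gives (chi-square over its degrees of freedom, 120 pairs), so none was counted as a duplicate.

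The members and gene lists were chosen with earlier results of these data known. To be named were members with a symbol that had the 12 largest changes, the 6 highest levels, the smallest p-values or a place in a list, or lay at the limit, which took in all 4. Members shown by identifier, and the one with the highest level, were picked after their values were seen. Other computations used Python 3.11.15, numpy 2.4.6, pandas 2.3.3, scipy 1.17.1 and matplotlib 3.10.9.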

Additional observations from a re-analysis of the deposited data

Results flagged for a closer look

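Of 40 groups of 6 values that were examined (4 genes with a symbol and the median of the set, in 8 groups each), 9 had a highest value that stood apart from the other 5 by Dixon's criterion. For independent, normally distributed values, chance alone meets it in about 1 of 20 groups. The groups here share calves and libraries, so the 9 are not set against this rate. Control calf 1802 stood apart for PGLYRP1 on d 0 at 26.1 CPM (the others 2.12 to 6.79), on d 1 at 35.5 CPM (4.75 to 8.25) and on d 2 at 30.2 CPM (4.45 to 12.1), and for CDKN1C on d 0 at 16.3 CPM (2.38 to 4.09). Control calf 1789 on d 7 stood apart for CLU at 88.9 CPM (14.4 to 19.97) and for HBB at 38.3 CPM (4.13 to 12.5). Weaned calf 1769 on d 1 stood apart for CLU at 88.6 CPM (7.84 to 19.1) and for HBB at 38.3 CPM (4.16 to 10.4). Weaned calf 1770 on d 2 stood apart for HBB at 27.0 CPM (3.29 to 10.5).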

How the results depend on the processing

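The number of genes the rule found depended on its settings. It was 132 with TMM-scaled library sizes (73 of the 74 among them), 32 with a pseudocount of 5, 79 with one of 0.5, 102 at a mean CPM of at least 1 and 51 at 10. Leaving out each control calf in turn gave 50 to 143 genes, with 50 without calf 1755, 117 without calf 1759 and 143 without calf 1803. Without calf 1755, 41 of the 74 genes were still found, so the set depended most on this calf. Without 1763, 1759, 1802, 1789 and 1803 in turn, 63, 65, 67, 73 and 74 of them were still found. The count of members called was 0 in all 6 comparisons under every alternative, and leaving out each calf in turn moved the median log2 change from -0.18 to 0.13 in weaned d 7 against d 0, from -0.19 to 0.03 in weaned d 2 against d 0, from -0.07 to 0.13 between treatments on d 1 and from 0.02 to 0.19 in control d 2 against d 1. With the calf as replicate block the median of weaned d 7 against d 0 was -0.07, and on d 1 and d 2 against d 0 it was -0.13 and -0.17. With flowcell as a block it was -0.22 on d 7, with 3 genes higher and 5 lower at an unadjusted p under 0.05. Of the genes with a symbol, PGLYRP1 changed sign in weaned d 7 against d 0: from -0.02 to 0.11 without the d 0 library labelled 1758, to 0.51 without calves 1758 and 1770, to 0.48 without them and with the replicate block, and to between -0.35 and 0.26 when single calves were left out. The cause was not tested. The settings that left out libraries labelled 1758, 1770 or 1755 were chosen after seeing the data. A correction for GC content or length was not run.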
